A study of Mus musculus with 8 samples.

Results

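Transcripts of the mouse histone genes were examined in single-cell libraries of SN4741 cells at 2 temperatures. Members were every gene whose symbol began with Hist followed by a digit and h, with H2af or with H3f3, together with H1f0, which gave 80 of the 31053 genes in the deposited tables. With the GENCODE M21 annotation (mouse assembly GRCm38), they were divided into 67 replication-dependent protein-coding genes, 12 replacement variants and H3f3aos, a transcript antisense to H3f3a. The replication-dependent genes were divided again by their annotated transcripts. Of these, 27 had a spliced transcript or a transcript that ran more than 100 bases past the stem-loop (longer-transcript genes), and 40 had neither (short-transcript genes).

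SN4741 is a mouse neural precursor line from embryonic substantia nigra, made with a temperature-sensitive large T antigen under the promoter of tyrosine hydroxylase, and the line is polyploid with an unstable karyotype. At 37 °C the cells grew in medium with 10% fetal bovine serum, while for the other group the medium was changed to 0.5% serum and the incubator to 39 °C for 48 hours. Temperature and serum therefore changed together and cannot be told apart. All libraries came from this same line, labelled wild type, with 4 libraries in each condition.

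Nucleosomes wrap DNA around an octamer of the core histones H2A, H2B, H3 and H4, and H1 binds the linker between them. Replication-dependent histone genes are mostly intronless and clustered, are used to package newly copied DNA in S phase, and give mRNAs that end shortly after a conserved 3′ stem-loop without a poly(A) tail. The stem-loop binding protein SLBP and the U7 snRNP process that end. Replacement variants such as H2A.Z, H3.3 and H1.0 lie outside the clusters, are made through the cell cycle as spliced or polyadenylated mRNAs, and are placed in chromatin by their own chaperones. Some replication-dependent genes can also give a polyadenylated transcript from a signal downstream of the stem-loop, particularly in cells that have left the cycle. The libraries were made with a 3′ kit that primes on poly(A), so a UMI (a barcode that counts a captured molecule) comes from a tailed or internally primed transcript.

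The 3′ ends show how the classes were told apart, and the genes below are those whose levels are described next. Stem-loops are in capitals and are read on the sense strand of the GENCODE M21 transcript. The stem-loop of Hist1h2ap lay 3 bases from the annotated end of its 482-base transcript, whereas in Hist1h1c, Hist2h4 and H2afx another 840, 1257 and 822 bases followed it.
Hist1h2ap: aaaaaaaGGCTCTTTTCAGAGCCatc
Hist1h1c: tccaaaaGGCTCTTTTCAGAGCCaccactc
Hist2h4: ccctaacGGCCCTTTTTAGGGCCaaccaca
H2afx: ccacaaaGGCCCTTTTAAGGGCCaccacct

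Poly(A) signals in capitals, near the annotated end of the longer transcripts and of the variant H2afz, stand 20 or 27 bases from it.
Hist1h1c: gtgtatgcttctAATAAAaagcgtttagtt
Hist2h4: tcgtatacataaAATAAAatcttaaaaaca
H2afz: ctctgcttactaATTAAAcagtgcatctgt

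A stem-loop match, with both arms paired, was present in 22 of 40 short-transcript genes, 24 of 27 longer-transcript genes and 1 of 12 variants, H2afx. By the rule, an unspliced gene without a match falls among the short-transcript genes, so the split between these classes was partly fixed in advance. Among other genes, 1.9% of 58702 coding transcripts held the letters of the pattern. Pairing was not checked there, and transcripts were counted singly, whereas a member counted if any of its transcripts matched. AATAAA or ATTAAA stood in the last 50 bases in 5% of short-transcript genes, 55.6% of longer-transcript genes and 75% of variants, and in 50.2% of all 58797 coding transcripts. A missing stem-loop says only that the annotated transcript lacks those letters. Hist1h1a and Hist1h1b had none in transcripts of 741 and 743 bases, and Hist2h2be fell among the short-transcript genes by the rule although its transcript is 2620 bases long. RefSeq gives much shorter spans for several longer-transcript genes (725 bases for Hist1h1c and 384 for Hist2h4, against 1560 and 1630 in GENCODE), so the class rests on the GENCODE annotation.

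The 8 libraries held 985 to 3494 cells after filtering and 17166686 to 29633818 UMIs. The share of cells assigned to G1 from Seurat's phase lists, which hold no member, was 20.6 to 28.7% at 37 °C and 82.5 to 85.4% at 39 °C. Cells in S were 36.7 to 42.1% against 10.6 to 12.1%, and cells in G2/M 34.2 to 37.3% against 2.94 to 5.35%. Between 8.93 and 13.9% of the cells of a library lay within 0.05 of the score that parts G1 from the other phases. Cells near the border between S and G2/M were not counted. Of 5 neural progenitor markers, Vim, Nes and Sox2 were detected in every library, whereas Pax6 and Msi1 stayed under 0.2 CPM. The dopaminergic markers Th, Slc6a3, Pitx3 and Ddc, the glial markers Gfap, Olig1 and Olig2 and the immune marker Ptprc did so as well. The glial marker Mbp was at 0.54 to 0.897 CPM at 37 °C and 0.3495 to 0.644 CPM at 39 °C. The neuronal marker Rbfox3 reached at most 0.2116 CPM. The mesenchymal markers Col1a1 (979.7 to 1061 CPM at 37 °C and 569.6 to 594 CPM at 39 °C) and Col1a2 (659.5 to 677 and 178 to 189.9 CPM) were present in every library and lower at 39 °C. So were Col3a1 (10.93 to 12.46 and 0.466 to 1.602 CPM) and Nes (429.9 to 538 and 105 to 117 CPM). The neuronal markers Map2 (48.39 to 52.52 and 28.04 to 31.91 CPM) and Tubb3 (14.21 to 17.21 and 7.481 to 9.588 CPM) were lower too. Sox2 was higher at 39 °C (52.02 to 57.18 and 72.55 to 80.68 CPM). The part of these markers in the results was not tested. A level is given here as CPM, the UMIs of a gene scaled to a common library total, which is not scaled by transcript length and is not compared between genes. In sums over all cells, a change in the number of cells that use a gene and a change in its RNA per cell cannot be told apart.

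The first comparison asked how histone transcripts differed between the temperatures when all cells of a library were summed. Of the 80 members, 71 averaged at least 1 UMI over the libraries and were tested, and 6 had no UMI in any library. At an adjusted p under 0.05 (edgeR's quasi-likelihood test over 15810 genes, Benjamini-Hochberg), 44 members were lower at 39 °C and 13 were higher, where 30.5% of all tested genes were lower and 31.5% higher. Short-transcript genes were mostly lower, with 27 of 35 lower and 2 higher, and their median on the log2 scale was -2.26 (-2.24 with 1 gene without a UMI at a temperature set at the bound that a floor of 3 counts over the group gives). Longer-transcript genes divided, with 9 of 26 lower, 10 higher and a median of -0.0027. Among the variants 8 of 9 were lower and 1 higher, with a median of -0.73. The median of all tested genes was 0.021. A fold over 1.5 on the log2 scale at an adjusted p under 0.01 was reached by 27 lower and 3 higher members, where 3.62% and 2.21% of all genes reached it. All 4 libraries at 39 °C lay below all 4 at 37 °C for 40 tested members and above them for 12, where 28% and 28.7% of all genes did. Labels do not say that the libraries of a condition came from separate cultures, so p-values measure at most the spread between libraries, which may be technical.

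**Figure D1:**
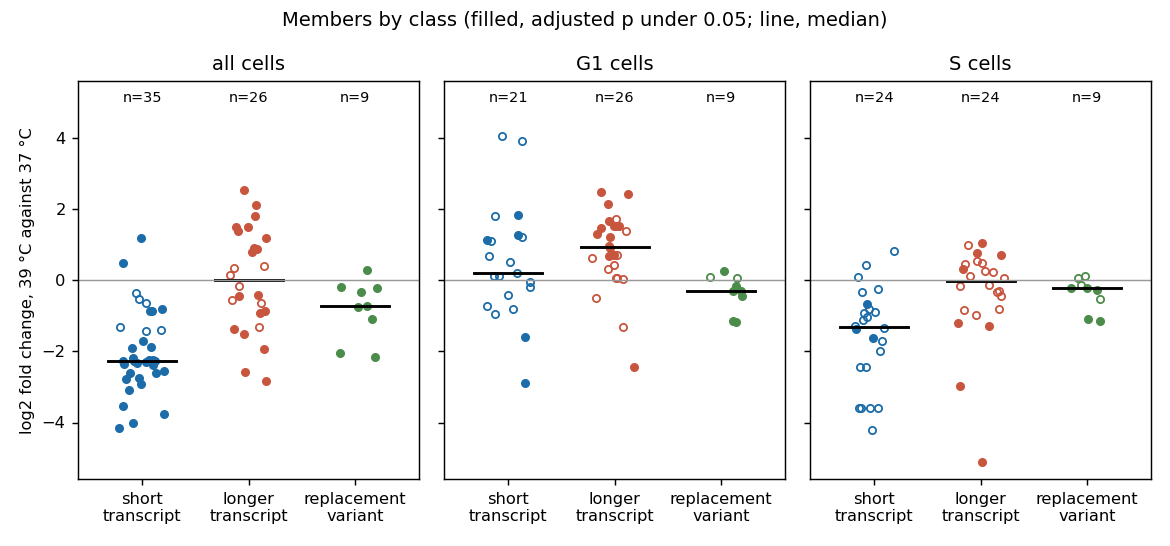
Log2 fold change at 39 °C against 37 °C for each tested member, in all cells and in cells assigned to G1 and to S, with filled points at an adjusted p under 0.05 and black lines at the class median. Short-transcript genes have medians of -2.26, 0.22 and -1.32 in the 3 panels, and longer-transcript genes -0.0027, 0.94 and -0.027.

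Hist1h1b, which encodes the linker histone H1.5, stood at 211, 184, 191 and 220.4 CPM in the 37 °C libraries and 34.2, 34.3, 38.2 and 25.9 CPM in the 39 °C libraries. Every 39 °C library lay far below every 37 °C library, with a log2 fold change of -2.61 ± 0.087 (SE, n = 4 and 4, adjusted p = 5.58e-15 in edgeR). Hist1h1a (H1.1) had 18.1, 16, 18.3 and 21.6 CPM in the 37 °C libraries and 1.3, 1.48, 2.41 and 1.08 CPM in the 39 °C libraries. It fell by more, with a log2 fold change of -3.53 ± 0.15 (adjusted p = 1.25e-13, edgeR). Both lie in the large cluster on chromosome 13, Hist1h1a at 23763666-23764406 on the plus strand and Hist1h1b at 21779883-21780625 on the minus strand.

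Hist1h2ap, a core histone gene for H2A whose transcript ends at the stem-loop, was read at 72.1, 41.9, 99.8 and 62.7 CPM in the 37 °C libraries and 23.5, 12.8, 10.3 and 10.7 CPM in the 39 °C libraries. Its 37 °C libraries were spread widely, yet all were above the 39 °C libraries (log2 fold change -2.33 ± 0.22, adjusted p = 2.70e-08, edgeR). All 50-base words in its last 300 bases are shared with another gene, so its level is uncertain among near-identical H2A genes. A further 18 short-transcript genes passed the larger fold at means of at most 1.85 CPM over the 8 libraries, all of them lower, between -1.71 and -4.15 on the log2 scale. The largest fall among these was that of Hist1h3c, a gene for H3, with 3.74, 3.02, 3.33 and 3.93 CPM in the 37 °C libraries and 0.227, 0.189, 0.177 and 0.193 CPM in the 39 °C libraries, which rests on 394 and 19 UMIs. The H3 genes Hist1h3g (-3.76), Hist2h3b (-3.1), Hist1h3i (-2.26), Hist1h3b (-2.2) and Hist1h3a (-1.87) fell as well. The H2A genes Hist1h2ai (-2.91), Hist1h2ak (-2.78), Hist1h2ag (-2.75), Hist1h2ab (-2.61), Hist1h2af (-2.27) and Hist1h2an (-2.24) did so too. For H2B these were Hist1h2bl (-2.55), Hist1h2bk (-2.38), Hist1h2bj (-2.3), Hist1h2bn (-2.23), Hist1h2bm (-1.9) and Hist1h2bb (-1.71). Of these 18 genes, 14 share at least 50% of the 50-base words in their last 300 bases with another gene. Cell Ranger counts only reads placed on a single gene, so values of near-identical copies are uncertain. Among the 11 tested short-transcript genes that share less, 8 were lower and 1 higher, with a median of -1.87. The 2 short-transcript genes that rose, named after their values were seen, were Hist1h4h for H4 (1.18) and Hist2h2ac for H2A (0.48).

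**Figure D2:**
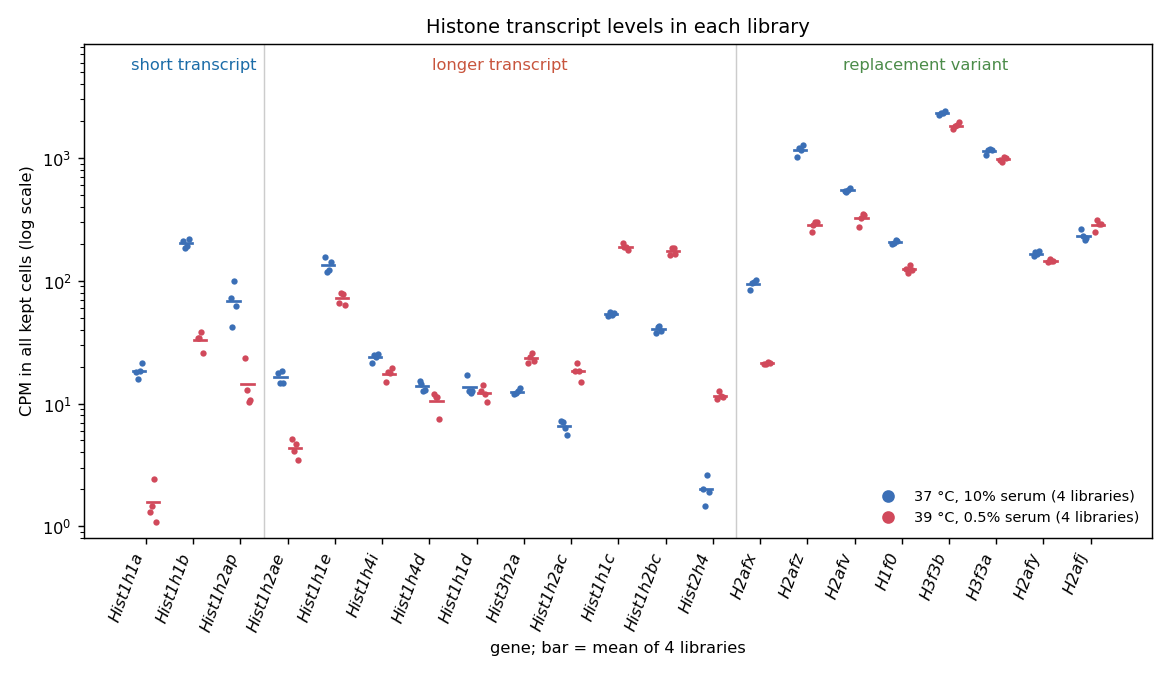
CPM of each member with a mean of at least 10 CPM, and of Hist2h4, in the 4 libraries of each condition, on a log axis and with bars at the means. Hist1h1c, Hist1h2bc and Hist2h4 lie higher in every 39 °C library, at 179 to 203 CPM against 52.1 to 56.0 CPM for Hist1h1c, while Hist1h1b and H2afz lie lower.

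Longer-transcript genes moved in both directions. Hist1h1c, which encodes H1.2, was at 52.1, 56, 52.5 and 54.2 CPM in the 37 °C libraries and 203, 187, 189.5 and 179 CPM in the 39 °C libraries. The groups did not overlap, and the gene was 3.53-fold higher at 39 °C (log2 fold change 1.82 ± 0.050, adjusted p = 3.00e-16, edgeR). Hist1h2bc, an H2B gene with a spliced transcript that reaches past its coding exon, had 37.8, 42.4, 42.7 and 39.4 CPM in the 37 °C libraries and 161, 185, 186 and 167 CPM in the 39 °C libraries. It was 4.31-fold higher at 39 °C, also without overlap (log2 fold change 2.11 ± 0.059, adjusted p = 3.54e-16, edgeR). Hist2h4, an H4 gene on chromosome 3, stood at 2.02, 1.47, 2.63 and 1.9 CPM in the 37 °C libraries and 11, 12.7, 11.4 and 11.4 CPM in the 39 °C libraries. Its change was the largest rise of any member tested in all cells, 2.53 ± 0.12 on the log2 scale (adjusted p = 5.06e-13, edgeR).

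The H2A gene Hist1h2ac was at 7.16, 7.01, 6.34 and 5.55 CPM in the 37 °C libraries and 18.4, 21.4, 18.5 and 15.1 CPM in the 39 °C libraries. Hist3h2a, an H2A gene of the small cluster on chromosome 11, was at 11.9, 12.2, 12.7 and 13.3 CPM in the 37 °C libraries and 21.3, 23.8, 26 and 22.2 CPM in the 39 °C libraries. Both rose without overlap, with changes of 1.5 ± 0.099 and 0.90 ± 0.066 on the log2 scale (adjusted p = 1.25e-10 and 5.22e-10, edgeR). Hist3h2a overlaps Trim17 on the same strand, and how its reads divide between them was not tested.

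Other longer-transcript genes fell. Hist1h1e, for H1.4, stood at 156, 119, 123 and 142 CPM in the 37 °C libraries and 66.5, 78.9, 78.5 and 63.3 CPM in the 39 °C libraries. It was lower in every 39 °C library (-0.91 ± 0.082 on the log2 scale, adjusted p = 9.49e-09, edgeR), but its last 300 bases lie wholly within Hist1h2be on the same strand and the counts of both are uncertain. Hist1h2ae, an H2A gene, had 17.8, 14.6, 18.3 and 14.7 CPM in the 37 °C libraries and 5.16, 4.13, 4.71 and 3.47 CPM in the 39 °C libraries. It fell by 1.92 on the log2 scale (adjusted p = 8.56e-12, edgeR), and its transcript runs only 151 bases past the stem-loop. The H4 genes Hist1h4i and Hist1h4d fell by 0.44 and 0.40 on the log2 scale, from means of 23.9 ± 1.83 and 13.8 ± 1.37 CPM (SD, n = 4) to 17.5 ± 1.93 and 10.5 ± 2.06 CPM. A further 3 low genes passed the larger fold downwards, namely Hist1h2bh for H2B (-2.58), Hist1h4j for H4 (-2.84) and Hist1h3f for H3 (-1.51). Hist1h1d, for H1.3, was at 17.2, 12.8, 12.2 and 12.7 CPM in the 37 °C libraries and 12.7, 14.2, 12 and 10.3 CPM in the 39 °C libraries, and its groups overlapped (-0.16 ± 0.11 on the log2 scale, adjusted p = 0.19, edgeR).

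**Figure D3:**
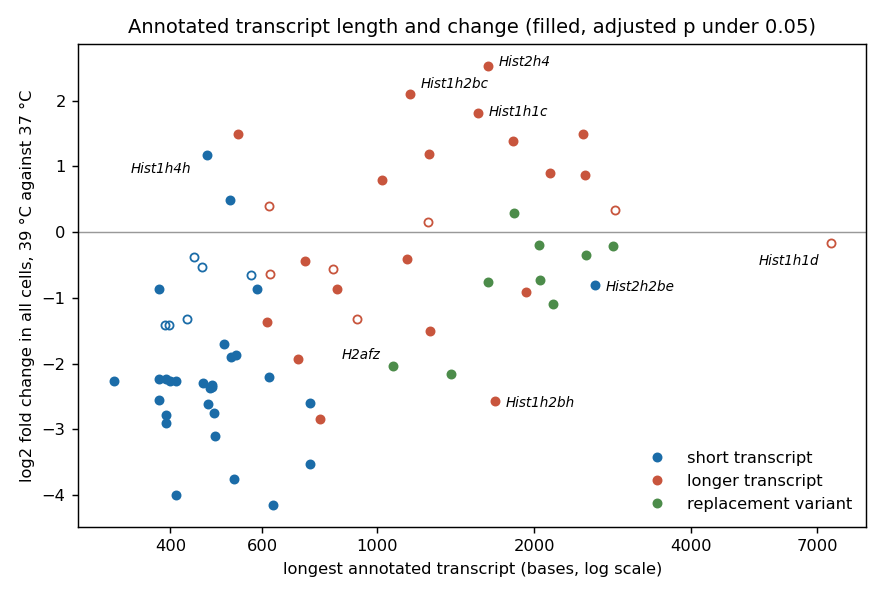
Log2 fold change in all cells against the longest annotated transcript of each tested member, in bases on a log axis, with filled points at an adjusted p under 0.05. Most short-transcript genes lie under 1000 bases and below 0, while the 3 members that rose by over 1.5 on the log2 scale (Hist1h1c, Hist1h2bc and Hist2h4) have transcripts of 1560, 1156 and 1630 bases. Hist1h2bh, at 1679 bases, fell.

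Among the replacement variants, H2afx and H2afz had the lowest log2 fold changes of the 9 tested. H2afz, which encodes H2A.Z, a variant placed at promoters and enhancers, was at 1024, 1202, 1169.8 and 1272 CPM in the 37 °C libraries and 248, 283, 299 and 303 CPM in the 39 °C libraries. It was 4.12-fold lower at 39 °C (log2 fold change -2.04 ± 0.073, adjusted p = 1.41e-14, edgeR). H2afx, for H2A.X, the form that is phosphorylated at DNA breaks, had 84, 95.5, 97.8 and 102 CPM in the 37 °C libraries and 21.2, 21.1, 21.6 and 21.2 CPM in the 39 °C libraries. The 39 °C libraries were all near 21 CPM, and the log2 fold change was -2.15 ± 0.059 (adjusted p = 2.61e-16, edgeR). It is the variant whose transcript also carries a stem-loop, as printed above.

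H2afv, for the second H2A.Z protein, was at 543, 531, 553 and 566 CPM in the 37 °C libraries and 277, 324, 353 and 346 CPM in the 39 °C libraries. H1f0, for the linker histone H1.0 that is typical of cells out of cycle, was at 198, 202, 216 and 211 CPM in the 37 °C libraries and 126, 115, 133 and 123 CPM in the 39 °C libraries. Both were lower in every 39 °C library, with changes of -0.75 ± 0.064 and -0.73 ± 0.052 on the log2 scale (adjusted p = 4.59e-09 and 2.73e-10, edgeR). H3f3b and H3f3a both encode H3.3, the H3 form that is placed in chromatin outside replication. H3f3b stood at 2249, 2312, 2324 and 2436 CPM in the 37 °C libraries and 1718, 1818, 1859 and 1953 CPM in the 39 °C libraries, and H3f3a at 1051, 1153, 1185 and 1159 CPM in the 37 °C libraries and 965, 933, 1019 and 997 CPM in the 39 °C libraries. The falls were -0.34 ± 0.058 and -0.22 ± 0.055 on the log2 scale, past the test with adjusted p of 3.38e-05 and 0.00214 (edgeR). For H2afy, which encodes macroH2A1, the change was -0.20 ± 0.046. H2afj, for H2A.J, was the variant that rose, from 233 ± 22 to 286 ± 26.8 CPM (SD, n = 4), with groups that overlapped (log2 fold change 0.29 ± 0.069, adjusted p = 0.00104, edgeR). The remaining tested variant, H2afy2 for macroH2A2, was lower at a mean of 1.17 CPM.

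Many H2A and H2B genes stand head to head. Members formed 13 head-to-head pairs with starts within 1000 bases, which were H2A with H2B except for Hist1h2bh with Hist1h3f, an H2B with an H3 gene. The shared promoters of Hist1h2ac with Hist1h2bc and of Hist1h2ae with Hist1h2bg both hold the octamer ATTTGCAT, printed here as windows of RefSeq promoters (GRCm38.p6) with the octamer in capitals on the strand of the gene named.
Hist1h2ac: tgggtgggattATGCAAATgaagtttccag
Hist1h2bg: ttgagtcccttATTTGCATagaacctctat
The first lies at chr13:23684071-23684100 on the minus strand, and the second at chr13:23571330-23571359 on the plus strand. Hist1h2ac and Hist1h2bc, whose starts are 251 bases apart, both rose. Hist1h2ae fell by 1.92 while Hist1h2bg, 176 bases away, did not pass the test (0.40, adjusted p = 0.231, edgeR). Hist1h2ap and Hist1h2br, with starts 236 bases apart, were read in opposite directions, at -2.33 and 1.18 on the log2 scale. Each shares 100% of the 50-base words in its last 300 bases with another gene, so both levels are uncertain. Hist2h2ac and Hist2h2be, with starts 239 bases apart, also went in opposite directions, at 0.48 and -0.81. Their adjusted p was 0.0146 and 0.0147 (edgeR), and they share 19.1% and 0% of these words. Both genes were lower in Hist1h2ag with Hist1h2bj, Hist1h2ak with Hist1h2bn, Hist1h2bl with Hist1h2ai, and Hist1h2bh with Hist1h3f. In each remaining pair a gene was not tested or did not pass the test. The octamer, searched on both strands of 300 bases around each start, was found in 23.7% of short-transcript and 20.8% of longer-transcript promoters and in 1.74% of all 32851 promoters. TATAAA stood in 60.5%, 50% and 13.6% of these, and CCAAT in 84.2%, 87.5% and 37.4%. The class shares cover 38 and 24 genes matched to RefSeq. A gene counted if any of its promoters matched, whereas all promoters were counted singly. In these 2 classes the octamer stood only at H2A genes (4 of 15 short-transcript and 3 of 3 longer-transcript) and H2B genes (5 of 9 and 2 of 7).

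Since phase shares moved with temperature, the temperatures were also compared among cells assigned to G1. Of the short-transcript genes 2 of 21 were lower and 3 higher, with a median of 0.22 (0.12 with 2 genes set at their bound), and without 37 °C replicate 4 only 1 was lower. With phases scored within each library 5 were lower, and with filterByExpr 0 were. Of the longer-transcript genes 14 of 26 were higher and 1 lower, with a median of 0.94, where 24.8% of 14712 genes were higher and 22.4% lower. The members past the larger fold were the longer-transcript genes Hist1h1c, Hist1h1d, Hist1h2ac, Hist1h2be, Hist1h2br, Hist1h4a and Hist2h4 and the short-transcript gene Hist1h4h upwards, where 1.04% of all genes passed it. Downwards it was passed by Hist1h3c (-2.88 ± 0.81, adjusted p = 0.00539, edgeR), a short-transcript gene with 10 UMIs at 37 °C and 4 at 39 °C in overlapping libraries, and by Hist1h4j, where 1.5% of all genes passed it (Hist1h2be, Hist1h2br, Hist1h4a and Hist1h4h are named after their values were seen). In their last 300 bases, Hist1h2br shares 100% and Hist1h4h 63.75% of the 50-base words with another gene, so their levels are uncertain. The variants were lower in 6 of 9 and higher in 1, with a median of -0.29. Hist1h1b, which fell so far in all cells, was at 23.1, 17.8, 15 and 20.8 CPM in the 37 °C libraries and 18.5, 20.3, 20.6 and 15.6 CPM in the 39 °C libraries in G1 cells. Those libraries overlapped, with a log2 fold change of -0.045 ± 0.11 (adjusted p = 0.776, edgeR). Likewise Hist1h2ap (0.68 ± 0.33), Hist1h1a (-0.80 ± 0.38) and Hist1h2ae (0.050 ± 0.18) did not pass the test in G1 cells. These calls depend on the setting for 3 of the 4 genes. Hist1h1a was lower without 39 °C replicate 3 (-1.04), without a cell filter (-0.94), without the upper limit on genes (-0.95), with phases scored within each library (-2.39) and with thinned counts. Hist1h2ap was higher without 39 °C replicate 3 (0.89), without a filter on low counts (0.69) and with the replicate block (0.77). Hist1h1b was lower with phases scored within each library (-0.89, adjusted p = 3.40e-07, edgeR).

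Hist1h1c in G1 cells was at 64.2, 79.4, 58.4 and 70.9 CPM in the 37 °C libraries and 231, 213, 214 and 205 CPM in the 39 °C libraries. Hist1h2bc was at 61.2, 75.3, 81.3 and 79 CPM in the 37 °C libraries and 189, 216, 216 and 197 CPM in the 39 °C libraries. These rises, 1.66 ± 0.070 and 1.47 ± 0.072 on the log2 scale (adjusted p = 2.10e-14 and 2.18e-13, edgeR), stood beside 1.54 ± 0.13 for Hist1h2ac and 2.15 ± 0.14 for Hist2h4. Hist1h1d was at 4.51, 4.46, 4.65 and 2.92 CPM in the 37 °C libraries and 12.4, 13.7, 11.6 and 10.4 CPM in the 39 °C libraries. Its groups, which overlapped in all cells, were separate here (1.52 ± 0.15, adjusted p = 1.43e-08, edgeR). The H4 genes Hist1h4d and Hist1h4i, lower in all cells, were higher in G1 cells, by 0.97 ± 0.18 and 0.68 ± 0.11, and Hist3h2a was higher by 0.70 ± 0.093. Hist1h4j remained lower (-2.45 ± 0.61, adjusted p = 0.00193, edgeR). H2afz also stayed lower, at 442, 497, 537 and 604 CPM in the 37 °C libraries and 211, 230.2, 234 and 239.9 CPM in the 39 °C libraries, without overlap (-1.18 ± 0.073, adjusted p = 6.91e-12, edgeR). H2afx was lower with a log2 fold change of -0.44 ± 0.075, and H3f3b did not pass the test (0.079 ± 0.058, adjusted p = 0.283, edgeR).

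Among cells assigned to S, 3 of 24 short-transcript genes were lower and 21 passed in neither direction, where 23.4% of 13740 genes were lower and 20.1% higher. At an unadjusted p under 0.05, edgeR gave 7 lower and 0 higher, and DESeq2 called 3 lower. Their median was -1.32, or -0.86 with 5 genes set at their bound. The 3 genes were Hist1h1a (-1.63 ± 0.33), Hist1h2ap (-1.36 ± 0.27) and Hist1h1b (-0.67 ± 0.10). Hist1h1b stood at 72.8, 68.4, 71.3 and 72.7 CPM in the 37 °C libraries and 46.1, 58.7, 45.2 and 30.5 CPM in the 39 °C libraries in S cells. The groups were apart, with an adjusted p of 2.27e-06 (edgeR). Of the longer-transcript genes 4 of 24 were higher and 4 lower. Hist1h1c was higher, at 24.2, 23.4, 22.3 and 24.7 CPM in the 37 °C libraries and 45.1, 41.3, 50.7 and 57.7 CPM in the 39 °C libraries (1.05 ± 0.093, adjusted p = 9.02e-11, edgeR), whereas Hist1h2bc overlapped between the groups, at 22.5, 20.2, 26.3 and 23 CPM in the 37 °C libraries and 8.42, 12, 23.9 and 26.9 CPM in the 39 °C libraries (-0.31 ± 0.17, adjusted p = 0.145, edgeR). Hist1h2ac, Hist1h1d and Hist1h1e were the others higher, at 0.76, 0.70 and 0.31. Their calls were lost under 6, 3 and 2 of the alternatives in turn, and under 1 each for Hist1h4i and Hist1h2ae. Hist1h4i (-1.21) and Hist1h2ae (-1.28) were lower, as were Hist1h4j, with 38 UMIs at 37 °C and 1 at 39 °C, and Hist1h2bh, with 27 and 0. Of the 9 variants 5 were lower, among them H2afz (-1.08 ± 0.073) and H2afx (-1.14 ± 0.098). Without 39 °C replicate 2, 5 short-transcript genes were lower and 2 longer-transcript genes higher. With all libraries thinned to the smallest total, 1 longer-transcript gene was higher and 2 variants were lower.

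Cells assigned to S at the 2 temperatures were not alike in their scores. Their median S score was 0.206 to 0.24 in the 37 °C libraries and 0.0843 to 0.103 in the 39 °C libraries, and the part of this in the differences above was not tested. When phases were scored within each library, 12 rather than 3 short-transcript genes were lower in S cells, and Hist1h2bc was higher at 39 °C by 1.63 on the log2 scale (adjusted p = 1.34e-11, edgeR).

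The next comparison set S cells against G1 cells of the same libraries, at each temperature. At 37 °C, 6 of 25 short-transcript genes were higher in S and 19 passed in neither direction, where 24.3% of 13992 genes were higher and 21.4% lower, and the median was 1.13. At an unadjusted p under 0.05, edgeR gave 8 higher and 0 lower, and DESeq2 called 5 higher. Longer-transcript genes were lower in 6 of 25 and higher in 4, and variants higher in 5 of 9 and lower in 2. Hist1h1b rose from 23.1, 17.8, 15 and 20.8 CPM in G1 cells to 72.8, 68.4, 71.3 and 72.7 CPM in S cells of the same libraries (1.89 ± 0.069 on the log2 scale, adjusted p = 2.91e-29, edgeR). Hist1h2ap (1.94 ± 0.12) and Hist1h1a (2.43 ± 0.22) were higher in S as well. In contrast, Hist1h1c fell from 64.2, 79.4, 58.4 and 70.9 CPM in G1 to 24.2, 23.4, 22.3 and 24.7 CPM in S (-1.52 ± 0.062, adjusted p = 3.46e-27, edgeR). Hist1h2bc (-1.68 ± 0.062), Hist2h4 (-1.28 ± 0.27), Hist1h2ac (-1.08 ± 0.17) and Hist3h2a (-1.06 ± 0.11) were also lower in S than in G1. These 5 genes are among the 10 longer-transcript genes that were higher at 39 °C in all cells. Both lists come from the same counts and the G1 share differed between the temperatures, so this overlap is not a separate result. The share of all genes with such an overlap was not counted. H2afz (1.14 ± 0.025) and H2afx (1.39 ± 0.068) were higher in S, and H1f0 was lower (-0.30 ± 0.036).

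At 39 °C, 14 of 25 longer-transcript genes were lower in S than in G1 and 1 was higher, where 20% of 14511 genes were lower and 17.5% higher. Their median was -1.11 (-1.05 with 1 gene at its bound). Past the larger fold, 8 of these were lower, where 0.372% of all genes were lower and 1.78% higher. Of the 19 short-transcript genes 2 were higher in S, Hist1h1a (1.6 ± 0.46) and Hist1h1b (1.26 ± 0.086), and 3 were lower, Hist1h4h, Hist2h2ac and Hist2h2bb. Their median was -0.56 (-0.0024 with 3 genes set at their bound), and without 39 °C replicate 1 only 1 was higher, whereas limma-voom called 5. Hist1h2bc fell from 189, 216, 216 and 197 CPM in G1 to 8.42, 12, 23.9 and 26.9 CPM in S (-3.45 ± 0.071 on the log2 scale). Its differences in the single libraries were -4.41, -4.12, -3.15 and -2.85, a wider spread than this SE, which comes from the fitted model. Under the alternatives the Hist1h2bc value lay between -3.76 and -1.96. Hist1h1c fell from 231, 213, 214 and 205 CPM to 45.1, 41.3, 50.7 and 57.7 CPM (-2.12 ± 0.055). For these and H2afz (1.24 ± 0.031) the p of edgeR was at or near the smallest number the software can write, and the adjusted p of limma-voom was 2.62e-15, 2.07e-17 and 2.19e-21.

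The test of whether the phase difference itself differed between the temperatures passed for 18 of 55 members, 16 lower at 39 °C and 2 higher, where 8.32% of 14296 genes were lower and 4.46% higher. Among the members over 10 CPM, the difference was largest for Hist1h2ap (-2.06 ± 0.21, adjusted p = 1.74e-16, edgeR), with 14.5, 8.04, 4.8 and 6.25 CPM in G1 and 8.92, 9.78, 3.67 and 7.21 CPM in S at 39 °C. Hist1h4i (-1.89 ± 0.21) and Hist1h2bc (-1.78 ± 0.12) followed in size, with adjusted p of 1.55e-14 and 6.54e-33 (edgeR). Under the alternatives the Hist1h2bc value lay between -2.08 and -0.42. The SE and p of these phase tests come from the fitted model and can understate the spread between libraries. Hist1h1c (-0.61 ± 0.091), Hist1h1b (-0.63 ± 0.11) and H2afx (-0.70 ± 0.12) passed with smaller values, while H2afz did not (0.089 ± 0.038, adjusted p = 0.113, edgeR). With DESeq2 8 members were lower in place of 16. Under the library totals alone, without TMM factors, the median of all genes moved by 0.119 in this test. The lower S scores of S cells at 39 °C stand beside these differences, and their part was not tested.

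**Figure D4:**
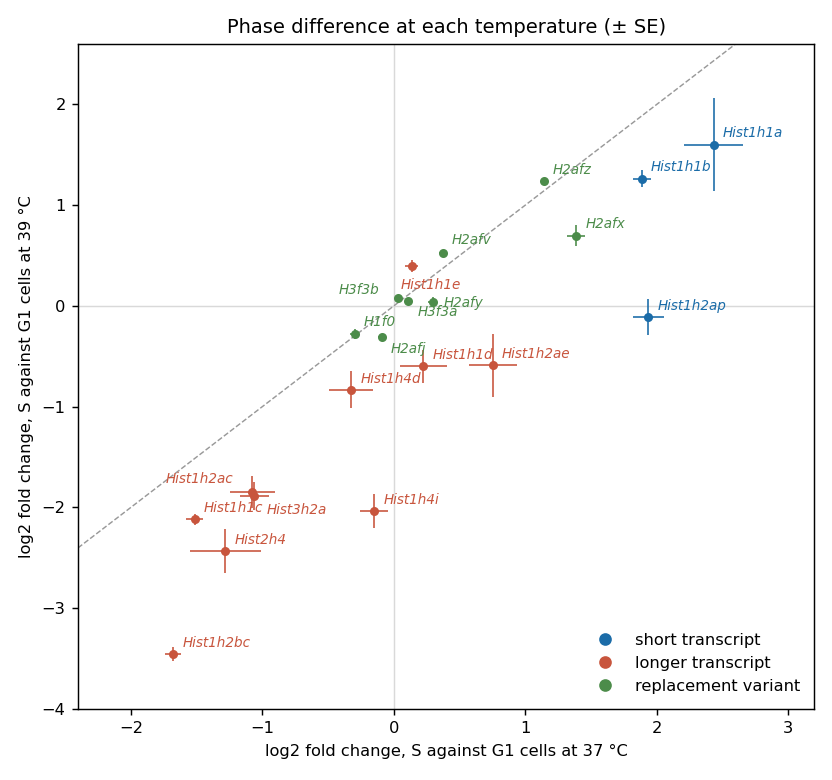
Log2 fold change of S against G1 cells at 37 °C (x axis) and at 39 °C (y axis) for members with a mean of at least 10 CPM and Hist2h4. Bars are standard errors of the fitted model, which can understate the spread between libraries, and a dashed line shows where both values are equal. Hist1h2bc (-1.68 and -3.45) and Hist1h4i (-0.15 and -2.04) lie far below the line, whereas H2afz (1.14 and 1.24) lies close to it.

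Cells assigned to G2/M, which were described without a test, had the highest mean of the 3 phases for 16 of the 20 members over 10 CPM at 37 °C, and for 14 of these all 4 libraries lay above those of the other phases. The share of all genes that do so was not counted, so these counts are not read as a trait of histone genes. Hist1h1b was at 481, 415, 427 and 469 CPM in the 37 °C libraries and 483, 254, 310.4 and 186 CPM in the 39 °C libraries in these cells, with overlap between temperatures. Summed over the class, short-transcript genes had 33.6 ± 4.35, 110.1 ± 10.1 and 711 ± 67.6 CPM (SD, n = 4) in G1, S and G2/M cells at 37 °C and 41.7 ± 6.21, 62.2 ± 14.6 and 537 ± 273 CPM at 39 °C. Longer-transcript genes had 270.1 ± 9.31, 166 ± 9.83 and 583 ± 31.2 CPM and 621 ± 27.6, 199 ± 4.27 and 577 ± 106 CPM. In all cells together, short-transcript genes took 4.19 to 5.29% of the UMIs of coding members at 37 °C and 1.05 to 1.71% at 39 °C, and longer-transcript genes 5.05 to 5.81% and 11.1 to 12.8%. Only 29 to 187 cells of a 39 °C library were in G2/M, and in 39 °C replicate 1, with 29 such cells, the short-transcript sum was 932 CPM against 312 to 483 CPM in the other libraries.

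**Figure D5:**
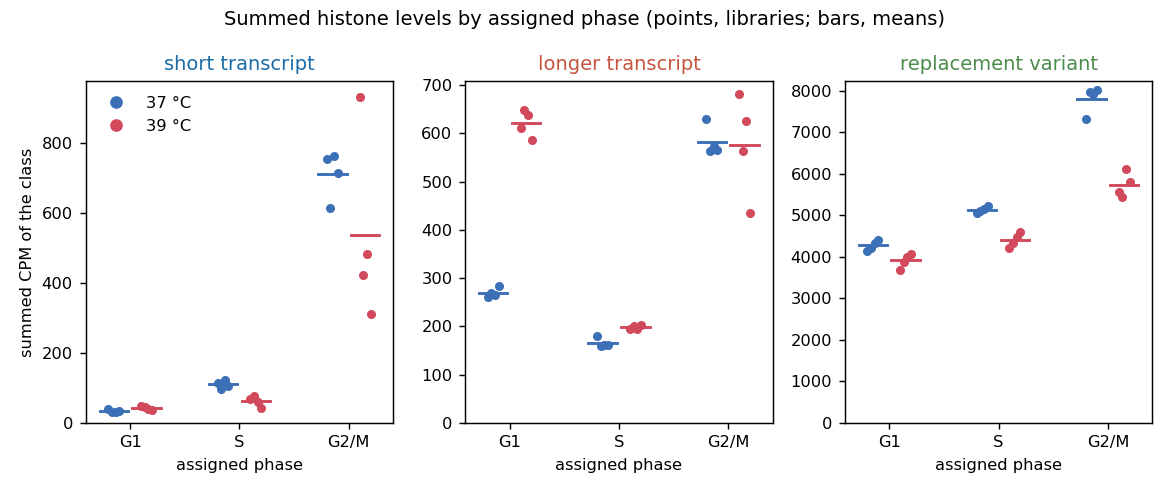
Summed CPM of each class in cells assigned to G1, S and G2/M, with a point for each library and bars at the means of 4 libraries. The longer-transcript sum in G1 cells is 261 to 283 CPM at 37 °C and 587 to 648 CPM at 39 °C, while the short-transcript sum is highest in G2/M cells at both temperatures.

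A list of 37 genes covered those that transcribe, process and carry histone products, together with Cenpa and H1fx, histone genes outside the symbol rule. In all cells 25 were lower at 39 °C and 3 higher, where 30.5% and 31.5% of all genes were, and the median on the log2 scale was -0.70. Of the 12 chaperones of replication-dependent histones 11 were lower, including Nap1l1 (log2 fold change -0.96 ± 0.048) and Ssrp1 (-1.01 ± 0.050), a subunit of FACT. Asf1b, which hands H3 and H4 to assembly factors, fell by 2.34 on the log2 scale (adjusted p = 1.22e-15, edgeR), from 39.5, 46, 44.4 and 48.5 CPM to 8.68, 8.56, 9.63 and 8.29 CPM. Nasp, a carrier of H3 and H4, fell by 1.61. Of 10 genes for 3′ end processing 6 were lower, with Slbp at 104, 116, 116 and 114 CPM at 37 °C and 55.2, 50.9, 52.5 and 53.7 CPM at 39 °C (-1.08 ± 0.049, adjusted p = 4.83e-13, edgeR) and Cpsf2, a subunit of the cleavage complex, with a change of -0.33 ± 0.048. In transcription, Npat, the coactivator of replication-dependent genes, changed by -0.41 ± 0.049 on the log2 scale and Casp8ap2 by -0.74 ± 0.044, while Hinfp, a factor for H4 genes named after its value was seen, rose by 0.50 ± 0.065.

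Of the 10 chaperones of variants 4 were lower and 2 higher, which is near the 30.5% and 31.5% of all genes. The 2 higher were Vps72 (0.28 ± 0.054) and Srcap (0.17 ± 0.075), which belong to the complex that places H2A.Z. Srcap passed only close to the threshold (adjusted p = 0.0492, edgeR). Anp32e, which removes H2A.Z from chromatin, fell by 2.06 on the log2 scale (adjusted p = 2.50e-16, edgeR), beside H2afz at -2.04. Atrx, which places H3.3 at repeats, changed by -0.38 ± 0.046 on the log2 scale, and Ubn1, of the HIRA complex, by -0.20 ± 0.047. The histone genes of the list that lie outside the symbol rule are among those counted as lower. Cenpa, for the centromere variant of H3, fell by 2.3 and H1fx, for H1.10, by 2.67. In G1 cells 21 of the 37 were lower and 5 higher, where 22.4% and 24.8% of all genes were, with log2 fold changes of -0.26 ± 0.072 for Slbp, -0.56 ± 0.14 for Asf1b and -1.63 ± 0.086 for H1fx. Slbp, Nasp, Casp8ap2, Chaf1b, Hjurp, Anp32e and Cenpa are in the phase lists, so their levels within a phase depend on how it was assigned and they were not tested between phases. Of the other 30, 20 were higher in S than in G1 at 37 °C and 18 at 39 °C, where 24.3% and 17.5% of all genes were.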

How the data were processed

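Single-cell RNA-seq libraries of SN4741 cells were made with the 10x 3′ kit, 4 at 37 °C and 4 at 39 °C. The authors aligned the reads and deposited filtered tables of UMI counts made with Cell Ranger 3.0.1, which counts reads placed on a single gene; the annotation release is not given in the sources used here. Cells with over 15% mitochondrial counts, or outside 200 to 6000 genes, were removed (18351 of 19125 were kept). Doublets were limited only by this upper limit, and no doublet caller was run. Any 2 libraries shared at most 5 cell barcodes, and no 2 libraries of a condition agreed within counting noise. Phases were assigned with Seurat 5.3.0. Counts were summed per library, or per library and phase, and tested with edgeR 4.0.16 in R 4.3.3 (TMM, quasi-likelihood, Benjamini-Hochberg) over all genes that averaged 1 UMI or more per library. S and G1 sums of a library were compared with the library as a term. Members of at least 10 CPM are named, as are others that changed by more than 1.5 on the log2 scale at an adjusted p below 0.01; of the genes that supply histones, those past the same rule and the 2 most abundant of each role. Members and lists were chosen with earlier results of these data known. On simulated counts, 200 of 200 genes changed by 2 on the log2 scale were recovered among 12669 genes for all cells and 199 of 200 among 11347 for S against G1 at 37 °C, with 0 false calls. Only genes averaging at least 10 counts were simulated, with the same spread beyond counting noise for every gene. A call there needed an adjusted p under 0.01 and a change over 1.5 on the log2 scale. The simulation therefore does not cover genes with fewer counts or calls at an adjusted p under 0.05 alone. DESeq2 1.42.0, limma 3.58.1 (voom), other scalings, filters, phase scores, thinned counts and left-out libraries were tried as alternatives.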

Additional observations from a re-analysis of the deposited data

Results flagged for a closer look

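Of 228 groups of 4 libraries examined, 13 had a library that stood apart from the other 3, where chance alone flags about 5% of groups. In the 37 °C libraries summed over all cells, replicate 1 was high for Hist1h1d (17.2 CPM, the next at 12.8 CPM), replicate 3 was low for Hist1h4j (0.736 CPM, the next at 0.948 CPM) and replicate 2 was low for the short-transcript sum (272 CPM, the next at 332 CPM). At 39 °C, replicate 4 was low for Hist1h4d (7.44 CPM, the next at 11.2 CPM). In G1 cells at 37 °C, H3f3b was low in replicate 2 (1668 CPM), Hist1h1a high in replicate 1 (1.64 CPM) and Hist1h1d low in replicate 4 (2.92 CPM). In S cells, H2afz was low in 39 °C replicate 1 (442 CPM, the next at 553.5 CPM) and the longer-transcript sum was high in 37 °C replicate 1 (180.1 CPM). In G2/M cells, 37 °C replicate 1 was high for Hist1h1d (38.5 CPM) and for the longer-transcript sum (629.6 CPM) and low for the variant sum (7328 CPM). Hist1h2ap was high in the G2/M cells of 39 °C replicate 1 (371 CPM, the next at 116 CPM), a library with 29 such cells.

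For 15 of the members named, the difference of S from G1 cells itself differed between the temperatures (edgeR's interaction test, adjusted over all genes). On the log2 scale, as 39 °C minus 37 °C, it was lower for Hist1h2ap (-2.06), Hist1h4i (-1.89), Hist1h2bc (-1.78), Hist1h2ae (-1.35), Hist2h4 (-1.16), Hist1h1d (-0.83), Hist3h2a (-0.83), Hist1h2ac (-0.78), H2afx (-0.70), Hist1h1b (-0.63), Hist1h1c (-0.61), H2afy (-0.26) and H2afj (-0.23). It was higher for Hist1h1e (0.26) and H2afv (0.15). The call was lost under 6 of the alternatives for Hist1h2ac, 4 for Hist1h1e and 3 for Hist1h1d. For Hist3h2a, H2afv and H2afy it was lost under 2 each, and for Hist1h2ae, Hist1h1c and H2afj under 1 each.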

How the results depend on the processing

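In all cells, 338 of 340 values of named members under the alternatives kept their direction and side of the threshold, and 2 newly passed it. Among members that share under 50% of their last 300 bases with another gene, a choice made after seeing the data, 8 of 11 tested short-transcript genes were lower in place of 27 of 35. In G1 cells, 386 of 400 values held. The 2 of 21 short-transcript genes lower there became 1 with DESeq2, with the updated phase lists and with thinned counts. Among members sharing under 50%, 1 of 9 tested was lower. The count was 0 with filterByExpr, 5 with phases scored in each library, and 1 to 2 when libraries were left out. In S cells, 364 of 400 values held. The 3 short-transcript genes lower became 5 without a cell filter, without an upper limit on genes and without supply genes in the S list, 12 with phases scored in each library, and 3 to 5 when libraries were left out. The 4 longer-transcript genes higher became 2 without the upper limit, 7 with phases scored in each library, 1 with thinned counts, and 2 to 5 when libraries were left out. The 5 variants lower became 2 with library totals only and 2 with thinned counts. Between S and G1 cells, 265 of 280 values held at 37 °C and 272 of 280 at 39 °C, and for the interaction 320 of 360 did. The 2 short-transcript genes higher in S at 39 °C became 5 with limma-voom, chosen after seeing the data, and 1 to 2 when libraries were left out. The 16 members lower in the interaction became 8 with DESeq2.

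With phases scored in each library, values changed sign for Hist1h1e in G1 cells (-0.23), for H1f0 (0.025), Hist1h1e (-0.047), Hist1h2bc (1.63) and Hist3h2a (1.07) in S cells, and for Hist3h2a in the interaction (0.12). The cause of these changes was not tested. Same-numbered libraries correlated in their deviations at -0.089, -0.077, -0.065 and 0.17, so the numbers were not taken to pair libraries. With the replicate block, 1 short-transcript gene was lower in G1 cells in place of 2. Counts of a few UMIs limit the low short-transcript genes, and 39 °C libraries hold 115 to 423 S cells.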

Other observations

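Of the 9 members without enough counts to test, H2afb1, H2afb2, H2afb3, Hist1h2aa, Hist1h2ba and Hist1h2bq had 0 UMIs in every library, and Hist1h2ah, Hist1h4m and Hist2h2aa2 had 1 each. In the GENCODE M21 transcripts, 100% of the 50-base words of Hist1h2bq also occur in another gene, chiefly Hist1h2br. H3f3aos, antisense to H3f3a, was at 1.34, 1.47, 1.86 and 1.23 CPM in the 37 °C libraries and 1.53, 1.63, 1.49 and 1.77 CPM in the 39 °C libraries, with overlap.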
